A study of Mus musculus with 4 samples.

Results

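The 38 genes described here drive or mark the cell cycle. They were chosen by name from the table of expression levels, and all 38 were found as single entries among its 55267 entries. All 38 also passed the filter for testing, a mean of at least 1 TPM over the libraries, as did 13128 entries in all. TPM is a level per unit of transcript length, scaled so that each library sums to 1000000. The genes fall into 6 roles: 8 G1 cyclins and kinases, 3 genes of pocket proteins and E2F, 8 genes of replication licensing and the fork, 2 of nucleotide synthesis, 8 of mitotic entry, and 9 of chromosomes and the spindle.

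The cells were muscle stem cells (MuSCs) in culture, taken from skeletal muscle of female mice of 9 weeks. The mice had the genotype C57BL/6N(Tg(Pax7-EGFP)Tajb), in which a transgene makes green fluorescent protein under the control of Pax7, the transcription factor that marks MuSCs. Cells were sorted for that fluorescence after 1 day of culture and grown for another 2 days in medium with 15% serum, 2.5 ng/mL basic FGF and 10 ng/mL LIF at 3% oxygen. All libraries, controls included, then came from cells kept for 6 h without serum with 200 ng/mL of a soluble BMP receptor, BMPR-1A-Fc, which binds BMPs left in the medium. The BMP6 group (2 libraries) received 100 ng/mL BMP6 for 1 h, and the control group (2 libraries) received the vehicle, 4 mM HCl with 0.1% BSA. The titles of the libraries call them biological replicates 1 and 2. The replicate number is a batch in the labels that holds 1 BMP6 and 1 control library. How many animals a replicate came from is not given in the sources used here.

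In the G1 phase, D-type cyclins with CDK4 or CDK6 and then E-type cyclins with CDK2 phosphorylate the retinoblastoma family of pocket proteins. The pocket proteins then release E2F transcription factors, which turn on genes of DNA replication and of nucleotide supply. Genes of mitosis come later and are controlled through the MuvB complex and its partners at a short promoter element, the cell cycle genes homology region (CHR), usually near CCAAT boxes bound by NF-Y. In muscle, MuSCs divide as myoblasts, leave the cycle under CDK inhibitors such as p21 and fuse into fibres. The levels in the control libraries therefore bear on how far the culture had left the cycle.

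The promoter sequences show how the roles differ in the motifs around the starts of these genes. RefSeq promoters (build GRCm38.p6, 250 bases before to 50 after the start) were matched for 30 of the 38 genes. Aurkb, Ccna2, Ccnd1, Ccnd2, Ccne2, Cdc25c, Mcm4 and Rb1 were not matched. The E2F motif was searched as TTTCCCGC, TTTCGCGC, TTTGCCGC or TTTGGCGC, the CHR as TTTGAA or TTCGAA, and the CCAAT box as CCAAT, each on both strands. TTCGAA reads the same on both strands and was counted once per place, and none of these motifs contains another. The windows below are 30 bases long, run 5′ to 3′ along the strand of the gene and have the match in capitals. The first 4 show the E2F motif in genes of licensing and in the mitotic kinase Cdk1, the next 4 show the CHR in genes of mitosis, and the last shows the CCAAT box of Rrm2, the gene with the highest level and the clearest difference after BMP6.
Mcm6 (chr1:128359797-128359826, minus strand): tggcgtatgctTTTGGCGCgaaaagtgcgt
Mcm5 (chr8:75109345-75109374, plus strand): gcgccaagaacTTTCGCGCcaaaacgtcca
Cdc6 (chr11:98908002-98908031, plus strand): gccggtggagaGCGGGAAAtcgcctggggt
Cdk1 (chr10:69353025-69353054, minus strand): tttccgctcccTTTCGCGCtctgcgctccc
Cdc20 (chr4:118437344-118437373, minus strand): agacagttgggtTTTGAAggagccaatgaa
Mki67 (chr7:135716460-135716489, minus strand): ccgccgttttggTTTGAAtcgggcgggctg
Cdk1 (chr10:69352966-69352995, minus strand): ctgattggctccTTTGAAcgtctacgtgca
Top2a (chr11:99024351-99024380, minus strand): ctattggtccatTTTGAAgattctcccgcc
Rrm2 (chr12:24708192-24708221, plus strand): ggtcagcggcgtCCAATgggaggcgaggcc

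The E2F motif was in 8 of the 30 promoters and in 2.32% of all 27025 RefSeq promoters. Of those 8 genes, 5 were genes of licensing and the fork (Mcm3, Mcm5, Mcm6, Mcm7 and Cdc6), and the others were Cdk1, Cdk2 and Rbl1. The CHR was in 14 of the 30 promoters and in 19.4% of all promoters. It was found in 8 of 9 genes of chromosomes and the spindle (all but Birc5), 4 of 5 genes of mitotic entry (all but Ccnb1) and 2 of 7 of licensing (Mcm2 and Mcm7), and in none of the 9 matched genes of the other 3 roles. The CCAAT box was in 21 of the 30 promoters and in 37.9% of all promoters. The GC-rich sequence GGCGCC, a SMAD binding element of BMP targets that can overlap the end of the E2F motif, was in 6 of the 30 promoters and in 11.96% of all promoters. In Cenpf, Bub1, Cdca8, Aurka and Plk1 the only CHR match lay after the start, as did the E2F matches of Mcm3. All of the matches are letters in a window and do not show binding.

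**Figure D1:**
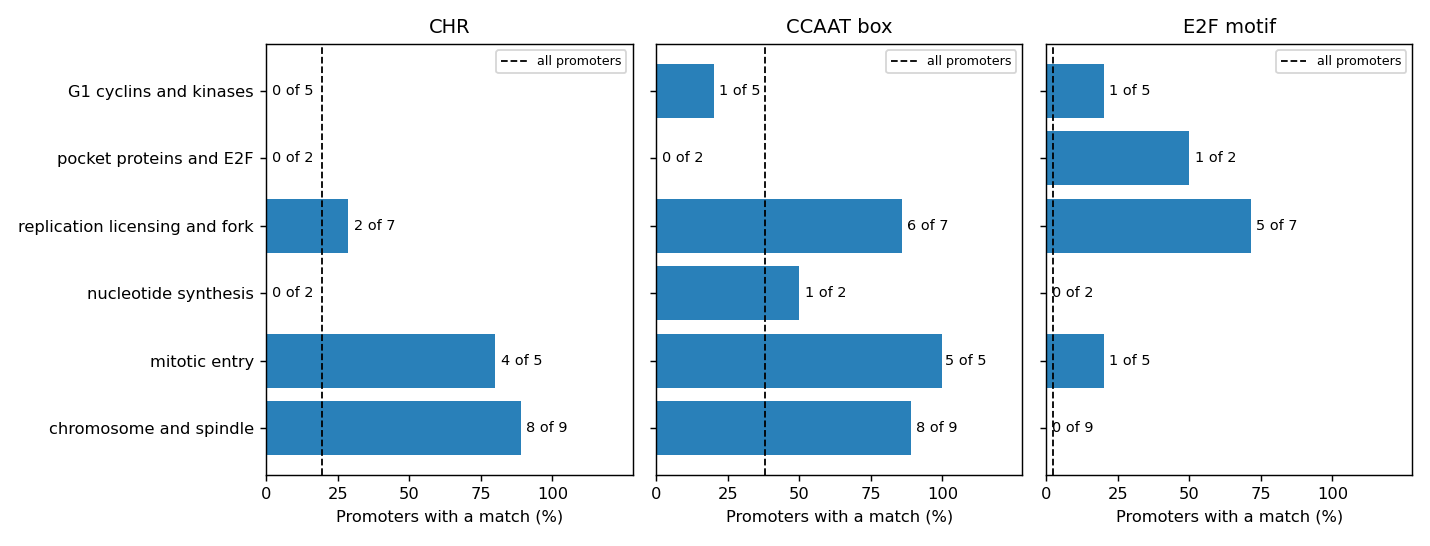
Share of RefSeq promoters (x axis, %) that hold the CHR, the CCAAT box or the E2F motif, with 1 bar for each role and the number of genes written beside it; the dashed line is the share over all 27025 promoters. The CHR is in 8 of 9 genes of chromosomes and the spindle, and the E2F motif in 5 of 7 genes of licensing.

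The 4 libraries were of like depth, 108.1 to 112.0 in units of 1000000 reads as rebuilt from coverage, and correlations of log2(TPM + 1) between libraries across genes were 0.988 to 0.995. The 38 genes together took 0.450% to 0.496% of all TPM. Markers of the labelled cells were present, with Pax7 at 8.29 to 11.7 TPM and Myod1 at 536 to 631 TPM, but the differentiation factor Myog reached 4400 to 5472 TPM. Of the other cells' markers, 4 endothelial genes summed to at most 0.298 TPM and 4 immune genes to at most 1.79 TPM, with Kdr at 0 in every library. Among the fibroblast markers Pdgfra reached at most 0.164 TPM and Dcn at most 1.92 TPM, while Col3a1, a collagen gene, was at 69.5 to 109 TPM. The pericyte and smooth muscle list summed to 2912 to 3256 TPM, nearly all of it Acta2, an actin that cultured muscle cells can also make. In that list Pdgfrb was at 4.41 to 4.93 TPM and Rgs5 at 0.23 to 0.88 TPM, while Myh11 stayed at or below 0.0239 TPM. In bulk RNA, fewer cycling cells and less of each RNA per cell cannot be told apart.

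Genes of every phase of the cycle were expressed in the controls, although the culture had gone without serum for 6 h and expressed Myog at a high level. The mean control level was at least 100 TPM for 16 of the 38 genes, between 10 and 100 TPM for 18 and under 10 TPM for 4. Their median was 63.4 TPM, against 13.0 TPM over all tested entries. Ranked among those entries, the 38 genes lay between the 19.5th and the 98.7th percentile with a median at 79.9. Of the 38, 32 were above the 50th percentile and 10 above the 90th.

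The G1 cyclins and kinases spanned a wide range, in which 1 of the D-type cyclins and 1 of their 2 kinases carried almost all of the RNA. Control replicates 1 and 2 had 493 and 383 TPM of Ccnd3, while Ccnd1 was at 2.59 and 3.04 TPM and Ccnd2 at 2.99 and 2.67 TPM. The mean of Ccnd3 was 156 times that of Ccnd1 and 155 times that of Ccnd2. Cdk4 (385 and 344 TPM) stood 74.5 times above Cdk6, the alternative partner of the D-type cyclins, at 4.94 and 4.85 TPM. Ccnd1 shares 2315 exonic bases with LTO1, a gene on the opposite strand at up to 15.9 TPM, and Cdk4 shares 646 with Tspan31 (up to 246 TPM). The libraries were unstranded, so reads over those bases could not be assigned by strand. Of the later G1 genes, which drive the step into S phase, Cdk2 was at 106 ± 0.415 TPM (mean ± SD, n = 2), Ccne1 at 63.6 ± 2.68 TPM and Ccne2 at 24.3 ± 1.66 TPM.

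Pocket proteins and E2F were among the lower genes. E2f1, an activating E2F and itself an E2F target, had 29.1 TPM in the control of replicate 1 and 21.4 TPM in that of replicate 2. Rb1, the retinoblastoma protein, was at 18.3 and 21.5 TPM, and Rbl1, which encodes its relative p107, at 10.2 and 9.06 TPM. The control values of E2f1 and Rb1 overlapped, so these do not differ beyond their spread.

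S phase genes were led by Rrm2, the subunit of ribonucleotide reductase that cycles and so limits deoxynucleotide supply. At 741 and 785 TPM in the controls, it was the highest of all 38 genes. Tyms, thymidylate synthase, was at 35.3 and 34.3 TPM. Pcna, the sliding clamp of the replication fork, had the highest level of the licensing and fork genes (246 and 244 TPM), and Cdc6, which loads the MCM helicase onto origins, the lowest (10.2 and 10.4 TPM). The genes of the 6 subunits of that helicase lay between 42.9 ± 1.99 TPM (Mcm4) and 103 ± 10.2 TPM (Mcm7). The complex holds 1 copy of each protein, but TPM is a level of RNA and does not measure the proteins. Pcna has a processed pseudogene, Pcna-ps2, that matches it at 99.2% over 781 bases and was listed at up to 40.5 TPM. How reads were shared between them was not examined, so the level of Pcna is uncertain by an unknown amount.

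Genes of mitosis were also well expressed. Ccnb1, the cyclin of the mitotic kinase CDK1, was the highest gene of mitotic entry at 266 and 262 TPM in the controls, and Cdc25c, the phosphatase that activates CDK1, the lowest at 27.9 and 27.7 TPM. Ccnb1 has processed pseudogenes, of which Ccnb1-ps matches it at 99.2% over 1287 bases and was listed at up to 31.9 TPM. Cdc20, which activates the anaphase-promoting complex, was highest among the genes of chromosomes and the spindle (293 and 292 TPM), and Cenpf, a kinetochore protein, was lowest (11.1 and 13.8 TPM). Mki67, the gene of the proliferation marker Ki-67, was at 12.8 and 14.3 TPM, near the 50.9th percentile of tested entries. The mean of Cdc20 was 21.7 times that of Mki67. Coverage along a transcript can be uneven, so such ratios between genes are approximate. In BMP6 replicate 1, exons held by every Ccnb1 transcript had 376 to 2723 reads per base. Whether uneven coverage altered the order of the genes was not tested.

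**Figure D2:**
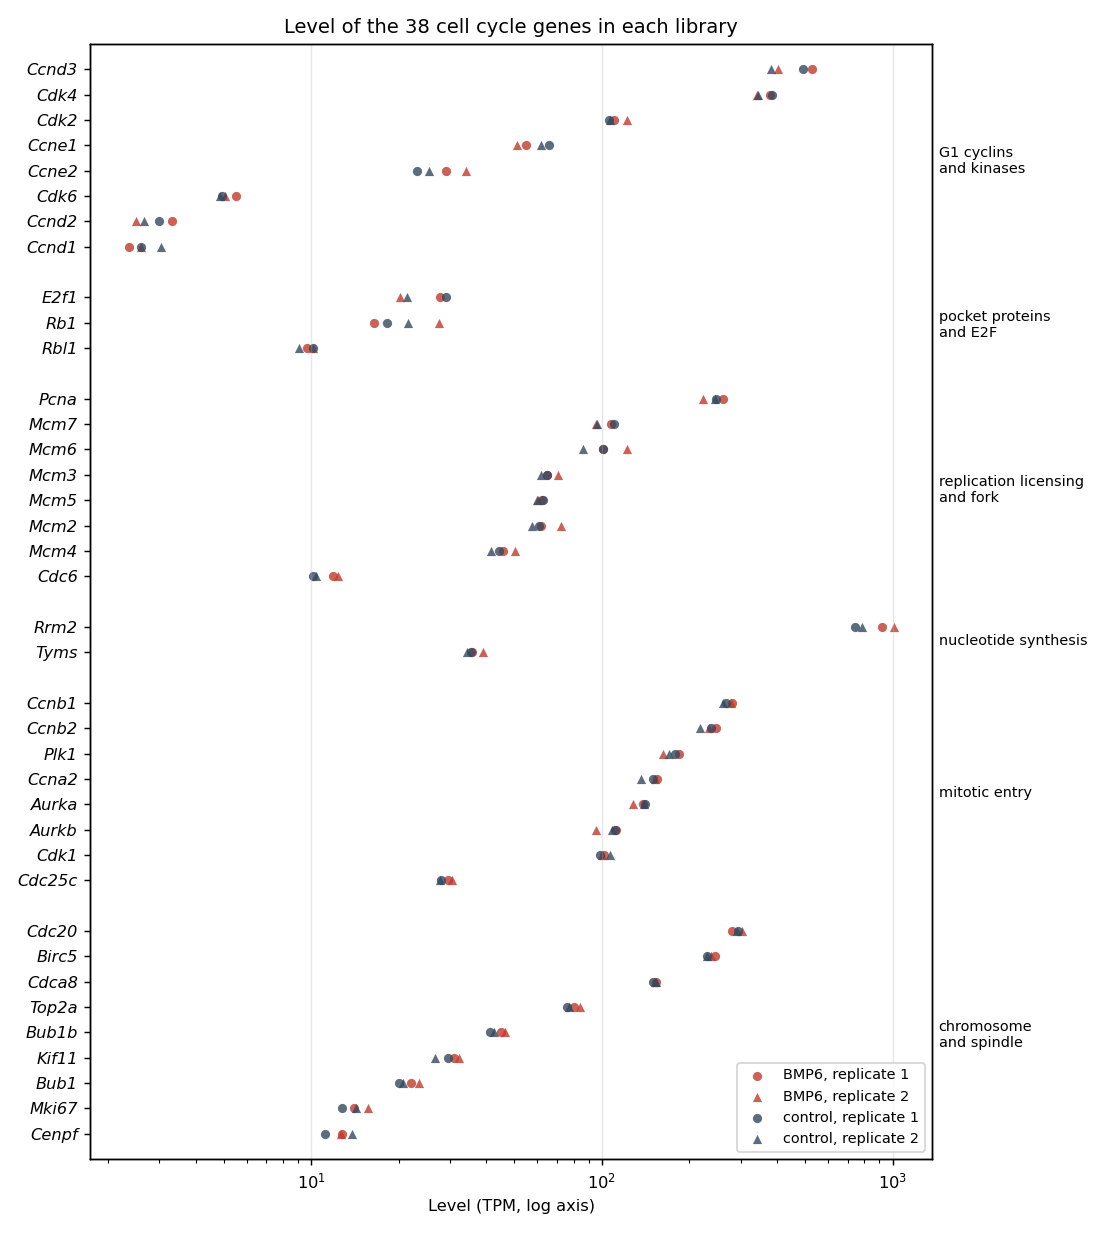
Level of each of the 38 genes (x axis, TPM on a log axis) in the 4 libraries, grouped by role and ordered by mean control level; red marks BMP6, blue-grey control, circles replicate 1 and triangles replicate 2. Rrm2 lies highest, with both BMP6 points (916 and 1012 TPM) to the right of both controls, and Ccnd1 and Ccnd2 lie lowest, at 2.36 to 3.32 TPM.

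The next comparison asked whether 1 h of BMP6 changed these genes. None of the 38 was called, where a call needs a fold of at least 2 or at most 0.5 on the log2(TPM + 1) scale and an adjusted p under 0.1 in limma. Over all 10646 entries counted, 24 were called, a share of 0.225%, each of them higher with BMP6. Without the fold requirement none of the 38 passed the adjusted p, beside 0.272% of all entries. At an unadjusted p under 0.05, 3 of the 38 passed (Rrm2, Ccne2 and Ccne1), beside 3.12% of all entries. The 95% interval of the difference lay within 2-fold in either direction for all 38 genes and for 97.5% of all entries, with bounds from -0.58 (E2f1) to 0.69 (Rb1) in log2.

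The differences were small and more often above 0 than below. The log2 difference was above 0 for 27 of the 38 genes and for 56.7% of all entries, and its median was 0.08 over the 38 genes against 0.02 over all entries. In 18 of the 38 genes both BMP6 libraries were above both controls, beside 17.4% of all entries, and in 2 (Ccne1 and Aurka) both were below, beside 10.7%. The entries behind these shares were not matched for level, and the 38 genes stood higher (median 63.4 against 13.0 TPM in controls). Genes of the cycle are also regulated together, so these counts are not of independent genes. Within replicate 1 the median difference of the 38 genes was 0.04 and within replicate 2 it was 0.09. The sign was the same in both replicates for 27 genes, of which 21 were higher and 6 lower with BMP6, and split for the other 11. By role, the median was 0.05 for the G1 genes, 0.04 for pocket proteins and E2F, 0.13 for licensing and the fork, 0.22 for nucleotide synthesis, 0.03 for mitotic entry and 0.10 for chromosomes and the spindle.

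**Figure D3:**
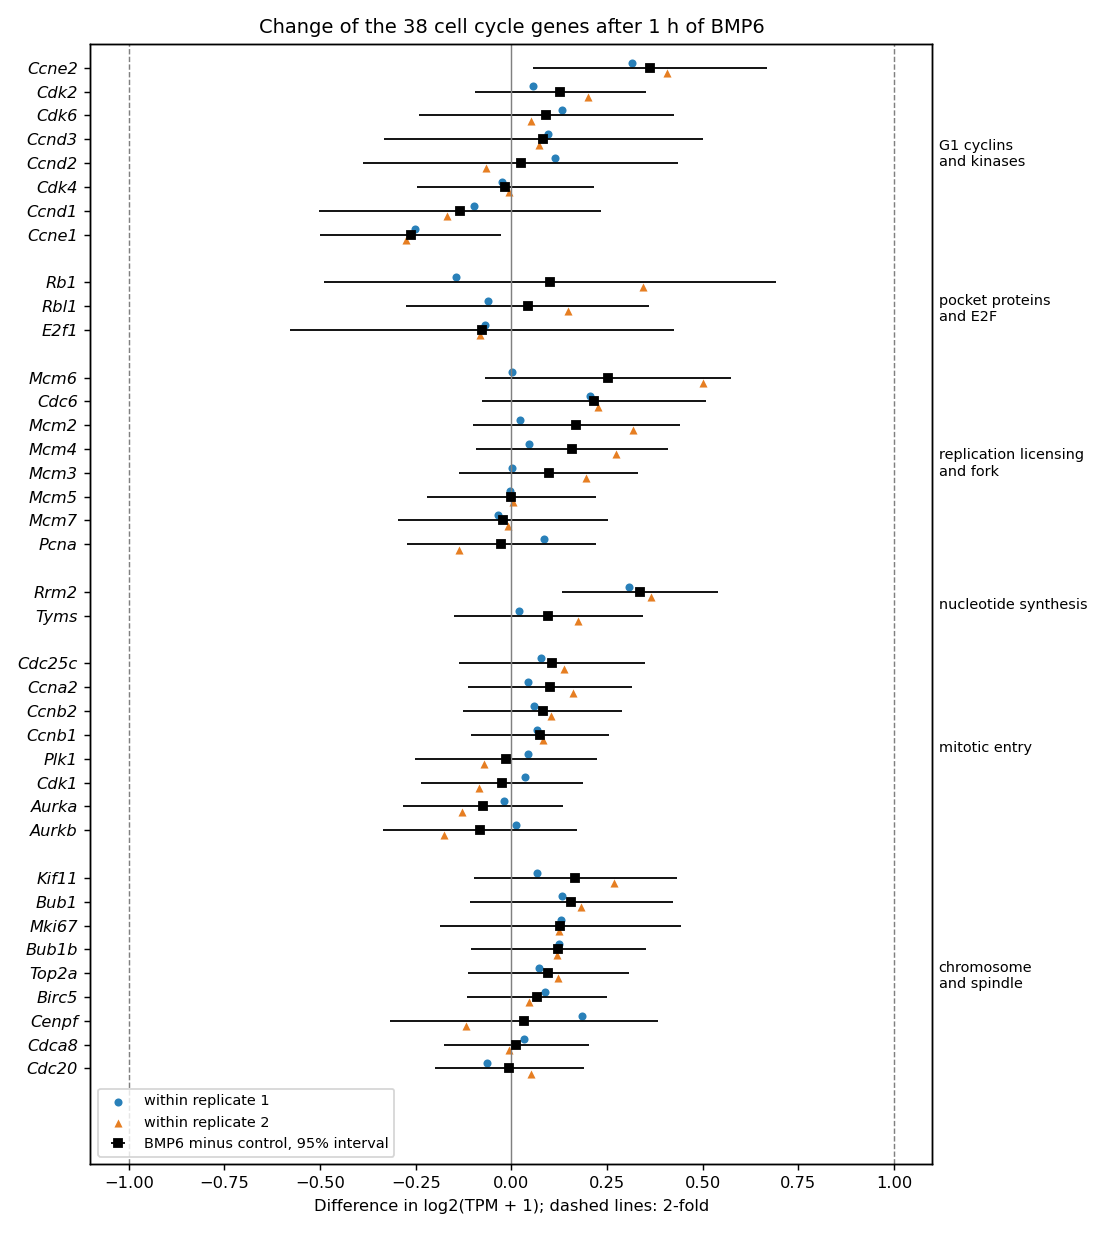
Difference between BMP6 and control in log2(TPM + 1) for each of the 38 genes (x axis), by role; squares are the fitted differences with their 95% intervals without the replicate block, circles and triangles the differences within replicates 1 and 2, and dashed lines mark 2-fold. All intervals lie inside 2-fold, and those of Rrm2, Ccne2 and Ccne1 do not include 0.

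Rrm2 had the clearest difference. BMP6 replicates 1 and 2 had 916 and 1012 TPM, against 741 and 785 TPM in the controls of the same batches. Both BMP6 libraries were above both controls, and the gap was of like size within each replicate, 0.31 and 0.37 in log2. The fitted log2 difference was 0.34 (SE 0.08, unadjusted p 0.00701, adjusted p 0.903, limma without a block). With the replicate number as a block, the adjusted p was 0.0064 in limma. Over all settings tried, the log2 difference of Rrm2 ranged from 0.26 to 0.41, and its adjusted p was 0.0064 and 0.0118 in the 2 fits with the block and 0.515 to 1 in those without. In that blocked fit none of the 38 genes reached 2-fold, as 0.348% of all entries did while passing. Of all entries, 1.64% of all entries passed the adjusted p, and 1.32% did so with a higher level after BMP6, against 2 of the 38 genes, Rrm2 and Ccne2. At an unadjusted p under 0.05 the blocked fit held 5 of the 38 genes (these, Ccne1, Mcm6 and Cdc6), a share of 13.2% beside 12.7% of all entries. Among the 10 markers of the myogenic state, none passed without the block, beside 0.272% of all entries. Of the 10, 3 were above 0 and 7 below, beside 56.7% of all entries above 0. In the blocked fit 2 of the 10 were lower with BMP6 past the adjusted p, beside 34 of all 10646 entries. These were the actin gene Actc1 (-0.20 in log2, adjusted p 0.032, limma) and the desmin gene Des (-0.24, adjusted p 0.0312, limma). The part of these in the differences of the cell cycle genes was not tested. The entry of Rrm2 lies at chr12:24758240-24764145 in GRCm39 and holds 1 transcript. It shares 1437 exonic bases with Gm59512, an opposite-strand non-coding gene of a later annotation for which no level was used here.

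The E-type cyclins, which activate CDK2 at the start of S phase, had differences of opposite sign. Ccne2 had 29.0 and 34.1 TPM with BMP6 (replicates 1 and 2) against 23.1 and 25.4 TPM without. The BMP6 libraries were both higher, with a log2 difference of 0.36 (SE 0.13, unadjusted p 0.0278, adjusted p 1 without a block and 0.0988 with it, limma). Ccne1 was at 54.9 and 50.8 TPM with BMP6 and at 65.5 and 61.7 TPM in the controls, so that the BMP6 libraries were both lower. Its log2 difference was -0.26 (SE 0.10, unadjusted p 0.034, adjusted p 1 without a block and 0.163 with it, limma). Over all settings, the log2 difference ranged from 0.25 to 0.48 and the adjusted p from 0.0644 to 1 for Ccne2, and from -0.32 to -0.21 and from 0.115 to 1 for Ccne1, which passed in none. Ccne2 shares 852 exonic bases with Ints8 on the opposite strand (up to 37.8 TPM), and Ccne1 shares 70 with 1600014C10Rik (up to 12.9 TPM).

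The other G1 genes and the pocket protein genes did not pass in either fit. Ccnd1 was at 2.36 and 2.60 TPM with BMP6 and at 2.59 and 3.04 TPM in controls, a log2 difference of -0.13 (95% interval -0.50 to 0.24). Its groups overlapped, since BMP6 replicate 2 lay just above control replicate 1. Ccnd3, Cdk4 and Cdk6 differed by 0.08, -0.02 and 0.09 in log2, and Cdk2 by 0.13. Rb1 and Rbl1 were lower with BMP6 in replicate 1 and higher in replicate 2.

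Among the licensing genes 4 of the 6 MCM subunits showed a gap in replicate 2 only. In replicate 1, Mcm6 was at 101.0 TPM with BMP6 and 100.9 TPM in the control, and in replicate 2 at 122 and 85.8 TPM. In log2 this was 0.00 within replicate 1 and 0.50 within replicate 2, and the fitted difference of 0.25 (SE 0.13) had an adjusted p of 1 without a block and of 0.367 with it (limma). Mcm2, Mcm3 and Mcm4 had the same order, with 0.02, 0.00 and 0.05 within replicate 1 and 0.32, 0.19 and 0.27 within replicate 2. Mcm5 and Mcm7 differed by 0.00 and -0.02 in the fit. Cdc6 was at 11.9 and 12.3 TPM with BMP6 and at 10.2 and 10.4 TPM in controls, close in both replicates, with a log2 difference of 0.22 (adjusted p 0.377 with the block, limma). The fork clamp Pcna was higher with BMP6 in replicate 1 (261 against 246 TPM) and lower in replicate 2 (222 against 244 TPM).

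Genes of mitosis lay close together in all 4 libraries. Of the 8 genes of mitotic entry, 4 were above 0 (Ccna2, Ccnb1, Ccnb2 and Cdc25c, by 0.07 to 0.11) and 4 below (Cdk1, Plk1, Aurka and Aurkb, by -0.01 to -0.08). Aurkb, the kinase of the chromosomal passenger complex, was at 112 and 95.5 TPM with BMP6 and at 111 and 108 TPM in controls. Its negative difference rested on BMP6 replicate 2, and without that library it was 0.03. Of the 9 genes of chromosomes and the spindle, 8 were above 0, up to 0.17 for the motor protein gene Kif11. Mki67 was at 14.1 and 15.7 TPM with BMP6 and at 12.8 and 14.3 TPM in controls, and its log2 difference of 0.13 had a 95% interval from -0.19 to 0.44. None of these 17 genes passed the adjusted p with or without the block.

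The replicates differed more than the treatments for some of the genes. With treatment as a term, 5 of the 38 genes passed an adjusted p under 0.1 between replicates 2 and 1, a share of 13.2% against 20.6% of all entries. Of the 5, Rb1 was higher in replicate 2 and Ccnd3, E2f1, Mcm7 and Cdk4 were lower, beside 11.8% and 8.81% of all entries in those directions. None reached 2-fold, as 0.47% of all entries did. In 3 of the 38 genes both libraries of replicate 2 were above both of replicate 1, beside 31.8% of all entries, and in 10 both were below, beside 24.5%. Without BMP6 replicate 1 or without control replicate 1, in fits that had no treatment term, none of the 5 passed, and without BMP6 replicate 2 only 2 of the 38 genes did. The log2 difference was above 0 for 20 of the 38 genes and 56.2% of all entries, its median was 0.01 against 0.03 over all entries, and for 17 of the 38 genes the replicate difference was larger in size than the BMP6 difference.

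E2f1 and Rb1, which act against each other in the control of S phase entry, lay at opposite ends. E2f1 was at 27.7 and 29.1 TPM in the BMP6 and control libraries of replicate 1 and at 20.2 and 21.4 TPM in those of replicate 2. The log2 difference of replicate 2 from replicate 1 was -0.43 (SE 0.08, adjusted p 0.0134, limma), and the replicates did not overlap. Rb1 was at 16.5 and 18.3 TPM in replicate 1 and at 27.6 and 21.5 TPM in replicate 2, a difference of 0.47 (SE 0.12, adjusted p 0.038, limma). Its largest step was in the BMP6 libraries, and without BMP6 replicate 2 the difference of Rb1 was 0.30 (adjusted p 0.222, limma). Over all settings it ranged from 0.30 to 0.64 with an adjusted p from 0.0172 to 1, while that of E2f1 ranged from -0.48 to -0.37 with an adjusted p from 0.00292 to 0.816. E2f1 (chr2:154401327-154411812) shares exonic bases with no other annotated gene, while Rb1 shares 488 with Rcbtb2 on the opposite strand (up to 38.5 TPM).

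Ccnd3, the dominant D-type cyclin, was at 527 and 493 TPM in the BMP6 and control libraries of replicate 1 and at 403 and 383 TPM in those of replicate 2. Its log2 difference of -0.38 (SE 0.05, adjusted p 0.00271, limma) had the smallest adjusted p of the 38 genes, and over all settings the difference ranged from -0.42 to -0.33 and the adjusted p from 0.000233 to 0.816. Its partner Cdk4 was lower in replicate 2 too, at 378 and 385 TPM against 343 and 344 TPM, a log2 difference of -0.15 (adjusted p 0.0822, limma). Mcm7 was at 108 and 110 TPM in replicate 1 and at 95.2 and 95.9 TPM in replicate 2, a log2 difference of -0.19 (adjusted p 0.0864, limma). Mcm7 shares 344 exonic bases with Cops6 on the opposite strand (up to 223 TPM), and Ccnd3 shares 369 with Bysl (up to 41.9 TPM). The next largest differences did not pass: Ccnd2 differed by -0.21, Ccne2 by 0.18 and Mki67 by 0.15 in log2. The sign for Ccne2 rested on BMP6 replicate 2, since without it the difference was -0.02.

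Other genes differed between the replicates beside these. Of the 10 myogenic markers, 2 were higher in replicate 2 past the adjusted p in limma and 2 lower, beside 11.8% and 8.81% of all entries. Myog and Mymx, a fusion gene, were higher by 0.24 and 0.43 in log2, and Myf5 and Des were lower by -0.52 and -0.23. The CDK inhibitor Cdkn1a, which encodes p21, was at 1468 and 1357 TPM in the BMP6 and control libraries of replicate 1 and at 1741 and 1586 TPM in those of replicate 2. Cdkn1b, the gene of the inhibitor p27, lay the other way, at 10.4 and 8.80 TPM in replicate 1 and at 7.42 and 6.58 TPM in replicate 2 (-0.40 in log2, adjusted p 0.0344, limma). Of the 7 inhibitors tested these 2 passed, beside 20.6% of all entries. The difference was above 0 for 3 of the 7, beside 56.2% of all entries, and the median was -0.14. The 4 fibroblast markers summed to 108 and 111 TPM in replicate 1 and to 70.5 and 80.3 TPM in replicate 2, nearly all of it Col3a1, with Lum at or below 0.27 TPM throughout. The part of these in the replicate differences of the cell cycle genes was not tested.

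**Figure D4:**
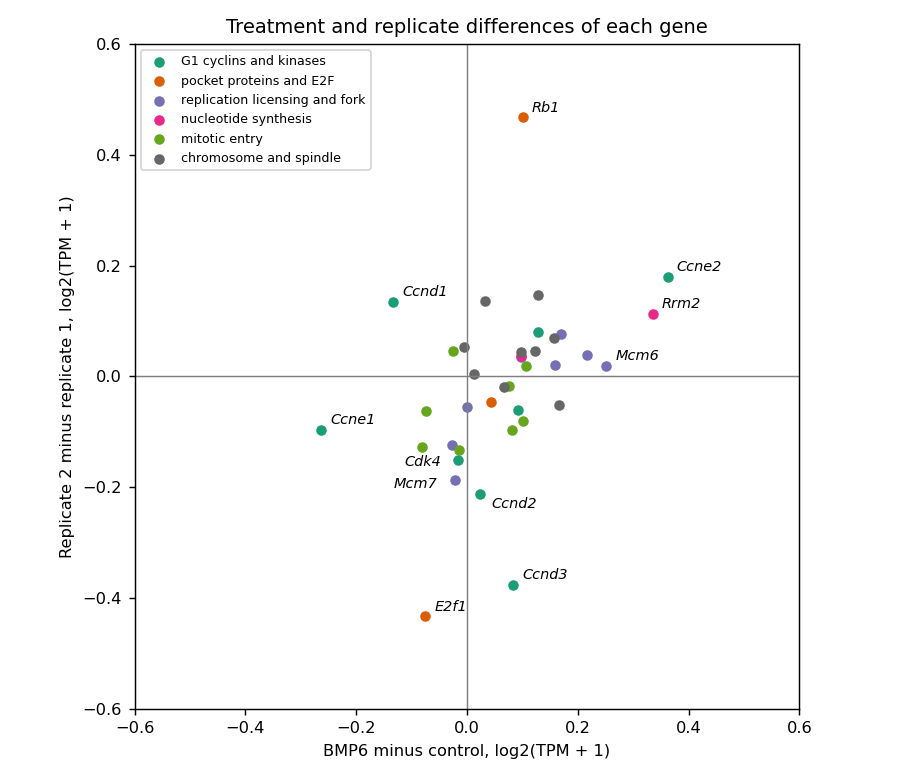
Each of the 38 genes by its difference between BMP6 and control (x axis) and between replicates 2 and 1 (y axis), both in log2(TPM + 1) and coloured by role. Rrm2 (0.34) and Ccne2 (0.36) lie farthest to the right, Rb1 (0.47) highest, and E2f1 (-0.43) and Ccnd3 (-0.38) lowest.

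The deposited transcript levels show what lies behind the gene values. Of the 38 genes, 19 had 1 transcript and the others up to 6. For Ccnd3 the gene level is a sum over 6 transcripts, of which ENSMUST00000182209 was assigned 411, 368, 376 and 373 TPM in BMP6 replicates 1 and 2 and control replicates 1 and 2. ENSMUST00000183044, which starts with 2 upstream exons, was assigned 108, 23.7, 105 and 3.94 TPM in the same order. Most of the gap between replicates was thus assigned to the upstream form. Its own 2 exons (chr17:47816044-47816191 and chr17:47889634-47889717) had, however, a coverage of at most 1.92 and 5.60 reads per base, the second counted with another upstream form. The 3 exons held by every transcript of the gene had a mean coverage of 3784, 2739, 3586 and 2685 reads per base. Coverage of the exons held in common was therefore lower in replicate 2 as well, by -0.44 in log2 without scaling to depth, and the upstream exons carried almost none of it.

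**Figure D5:**
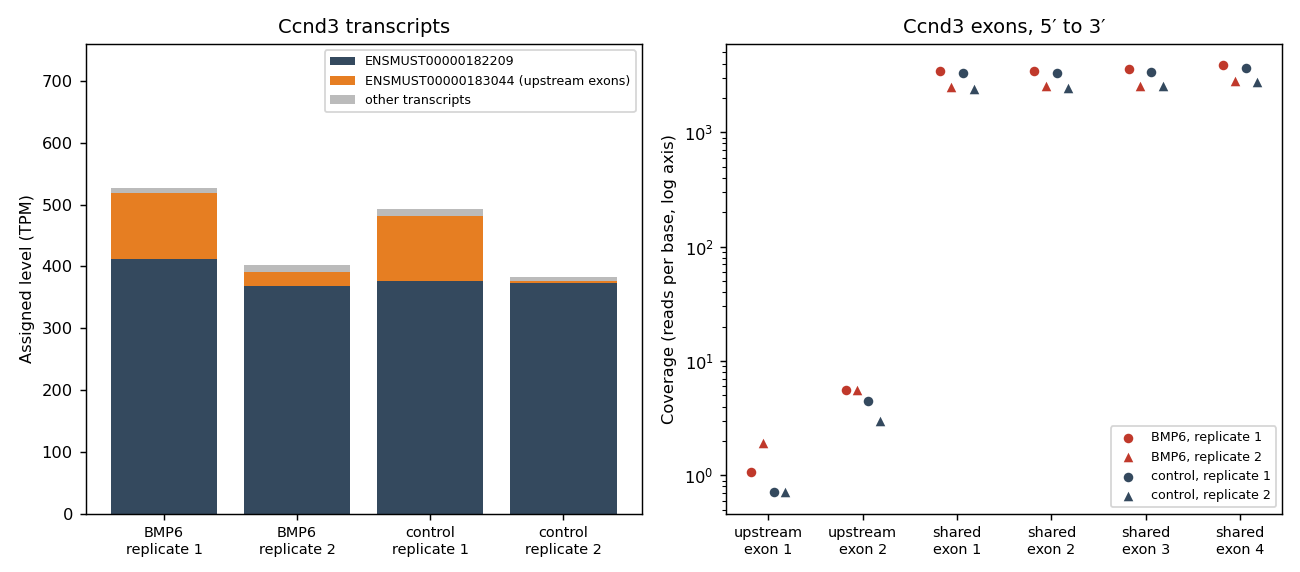
Left, TPM assigned to the transcripts of Ccnd3 in each library, stacked from 0. Right, coverage of the upstream exons and of the 4 exons that both main transcripts hold (y axis, reads per base on a log axis), with red for BMP6, blue-grey for control, circles for replicate 1 and triangles for replicate 2. The upstream exons stay at or below 5.60 reads per base, while the exons in common lie at 2403 or more in every library.

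Other splits between transcripts were as uncertain. E2f1 has 2 transcripts, which share 5 whole exons and differ at their ends. ENSMUST00000103145 was assigned 21.2 and 16.2 TPM in BMP6 replicates 1 and 2 and 13.3 and 11.4 TPM in the controls, whereas ENSMUST00000000894 was assigned 6.48, 3.95, 15.8 and 10.0 TPM in that order. The assigned levels of the forms therefore crossed between the groups, while the gene level differed by -0.08 in log2. Mean coverage of the 5 exons in common was 266 and 179 reads per base with BMP6 and 293 and 213 in controls, lower in replicate 2 in both groups. For Ccnb1, a form without the exon at chr13:100919973-100920155 was assigned 30.9, 60.1, 16.2 and 20.1 TPM in the same order, and coverage of that exon was 2561, 2357, 2519 and 2364 reads per base, beside 2723, 2501, 2636 and 2495 in the exon before it in the genome. No test was made on these splits, because the assembler estimates them from exons that the forms share.

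Further cell cycle genes were read from lists that were not part of the 38. None of 30 more S phase genes, 32 more mitotic genes or 15 more genes of E2F and pocket protein complexes passed the adjusted p after BMP6. Nor did any of 8 other cyclin, CDK and phosphatase genes (Ccnc, Ccng1, Ccng2, Ccnh, Cdk5, Cdk7, Cdk8 and Cdc25a). This held with or without the block. The log2 difference was above 0 for 18 of the 30, 24 of the 32, 14 of the 15 and 5 of the 8, beside 56.7% of all entries. The medians were 0.05, 0.09, 0.07 and 0.03, against 0.02 over all entries. In the S phase list the largest difference was that of Gins2, a subunit of the replicative helicase, at 18.6 and 20.3 TPM with BMP6 and 14.9 and 15.7 TPM in controls (0.33 in log2, adjusted p 0.166 with the block, limma). Rrm1, the large subunit that pairs with Rrm2, differed by 0.20 (adjusted p 0.281 with the block, limma). Between replicates 2 and 1, 3 of the 30 S phase genes were higher past the adjusted p and none lower. Of the 32 mitotic genes 1 was higher and 1 lower, and of the 15 genes of E2F and pocket protein complexes 5 were higher and none lower. Of the 8 other genes 3 were higher (Ccng1, Cdk8 and Cdc25a) and 1 lower (Ccng2), all beside 11.8% and 8.81% of all entries. The largest of these differences was past 2-fold, which none of the 38 genes reached. The S phase gene Fen1, a flap endonuclease, stood at 40.7 and 44.6 TPM in replicate 1 and at 93.9 and 92.1 TPM in replicate 2, a log2 difference of 1.11 (adjusted p 0.000109, limma).

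CDK inhibitors, which hold the cyclin kinases back, were present beside the cyclins. Cdkn1a had 1357 and 1586 TPM in the controls, more than any of the 38 genes, and Cdkn1c, which encodes p57, had 506 and 523 TPM. Cdkn2a, at 0.437 and 0.725 TPM, did not reach the filter. None of the 7 tested inhibitors passed the adjusted p after BMP6 with or without the block, and 4 were above 0, beside 56.7% of all entries. Cdkn2b, the gene of p15, had the largest difference, at 34.1 and 35.5 TPM with BMP6 and 40.6 and 42.6 TPM in controls (-0.25 in log2, unadjusted p 0.0426, adjusted p 1, limma).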

How the data were processed

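PolyA RNA was copied to full-length cDNA, amplified by PCR and made into libraries that keep neither strand nor molecular identifiers. Per the submitters' processing notes and the methods of the study, the authors used STAR 2.7.11a, SAMtools 1.17 and StringTie 2.2.1 on GRCm39, with transcripts merged over the libraries and no correction for reads aligned to several places. The authors deposited TPM and FPKM per entry, and coverage, a signal per transcript and exon not scaled to depth. Columns of the authors' own comparisons were not used.

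Reads were rebuilt as coverage times length over a read length of 100 bases. They came to 108.1 to 112.0 per library in units of 1000000. They are not independent molecules. With 2 libraries a group, no permutation test over samples can go below p = 0.333.

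Values were tested as log2(TPM + 1), which understates changes of low genes, with limma 3.58.1 (R 4.3.3; lmFit and eBayes with a trend, two-sided) and p-values adjusted after Benjamini and Hochberg over 13128 entries (mean TPM of at least 1). Names of predicted genes, microRNAs, Riken clones, antisense forms and pseudogenes (2482 entries) stayed in the fit and out of the counts. The study ran its test of differential expression with default settings and names no pairing term for it, while its heatmaps used a paired design. The fit here left the replicate number out, and a fit with it as a block was an alternative. The labels give the number as a batch, and libraries that share a number deviated together from the means of their groups (r = 0.563 across genes). The contrast of replicates had treatment as a term. P-values measure the spread between these libraries, with the variance of each gene drawn towards a trend over all fitted entries. With so few libraries they rest largely on that borrowed variance, most of all in the blocked fit and the contrast of replicates. The steps were tested on simulated data with independent noise between libraries, in which replicate differences were added to a small set of entries only. That test does not show how the fit without a block behaves with the wide replicate differences seen here.

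Genes named were the highest and lowest of each role in controls, all past the adjusted p in a fit, and the 3 largest rises and falls in each contrast. Others were named after their values were seen, among them the MCM subunits, Pcna, Fen1, Rrm1 and the transcripts. The 38 genes and the other lists were chosen with earlier results of these data known. One list of markers is not reported here. Overlapping genes, and copies of at least 95% identity over 300 bases, were taken from GENCODE M39 on the same build. Alternatives were pseudocounts, filters, FPKM, quantile normalization, no trend, voom on rebuilt reads, a threshold of 0.05 and leaving out each library.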

Additional observations from a re-analysis of the deposited data

How the results depend on the processing

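With the replicate block, a batch in the labels, 2 of the 38 genes (Rrm2 and Ccne2) passed the adjusted p after BMP6, where none did without it, and called entries over the whole table rose from 24 to 37. With voom on rebuilt reads and the block the same 2 genes passed, and 63 entries were called. Called entries came to 11 at a threshold of 0.05, 15 with a pseudocount of 5, 15 with a mean of at least 5 TPM, 12 without a trend and 1 without a filter, and to 18 to 34 when single libraries were left out. None of the 38 genes passed after BMP6 in any other setting. Between replicates, the 2194 entries past the adjusted p became 1269 at 0.05, 1029 without a trend, 518 without the treatment term, 0 without a filter and 58 to 1676 when single libraries were left out. For the 38 genes the count of 5 became 3 at 0.05, 2 without a trend, 2 without the treatment term, 0 without a filter and 0 to 4 when single libraries were left out. It was 0 without BMP6 replicate 1 and 0 without control replicate 1, and the treatment term was left out of these fits because 3 libraries leave no residual degree of freedom with both terms. The median percentile of control levels was 77.2 in FPKM in place of 79.9. Without BMP6 replicate 2, the difference of Aurkb after BMP6 turned to 0.029 (-0.193 to 0.029 over single libraries left out) and that of Ccne2 between replicates to -0.024 (-0.024 to 0.384). The causes were not tested. The 38 genes had 24 to 27 differences above 0 after BMP6 under the other scalings, and 24 to 32 when single libraries were left out. With 2 libraries a group and no block, the median distance from an estimate to the bounds of its 95% interval was 0.25 in log2. It ranged from 0.18 to 0.59 over the 38 genes, and differences smaller than a gene's own distance could not be resolved.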
